A study of Mus musculus with 9 samples.

Results

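The genes of the cytosolic heat shock response were read in RNA-seq libraries of mouse retinal explants cultured with or without 2-deoxy-D-glucose (2-DG). The 10 genes were Hspa1a, Hspa1b, Dnajb1, Hsph1, Hspa8, Hsp90aa1, Hspb1, Hspb8, Cryab and Bag3, taken by symbol from the 55487 genes of the count table, and all 10 were among the 21049 genes that passed the filter on low counts. Hspa1a and Hspa1b were also read as a sum, since they share reads. Retinas came from wild-type mice of strain C57BL/6J, aged 28 days after birth (P28), were freed of sclera and retinal pigment epithelium, and were kept for 48 h in Neurobasal-A medium. The 5 control explant libraries had 5 mM glucose and the 4 2-DG libraries had 5 mM glucose with 20 mM 2-DG, a glucose analog that blocks glycolysis. Dissection and culture were shared by the controls. The protocol also describes 1 h in Krebs' Ringer medium after culture, and does not make clear whether the retinas taken for RNA-seq went through it. The titles call the libraries biological replicates, but which mouse or retina each came from is not given, and the p-values measure the spread between these libraries. The comparison asked what a block of glycolysis does to transcripts of the mature retina.

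Cytosolic heat shock proteins bind unfolded or newly made proteins and keep them from aggregating. HSP70 proteins cycle on and off their clients with the help of HSP40 proteins, which start the cycle, and nucleotide exchange factors, which end it, and pass many clients to HSP90. Small heat shock proteins hold unfolded proteins without using ATP. In resting cells much of the transcription factor HSF1 is kept inactive by these same chaperones; when unfolded proteins accumulate in the cytosol, HSF1 forms trimers, binds heat shock elements (repeats of the unit nGAAn in alternating orientation) and induces Hspa1a, Hspa1b, Dnajb1, Hsph1, Hspb1 and others within minutes to hours. In the retina, Cryab is expressed in the glia, and HSP70 and the small heat shock proteins are known to respond to heat, bright light and injury.

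HSF1 acts through the heat shock element, so the sequence around the start site was searched for its units. Sequence is shown for 4 of the genes, those with a match in the 130 bases before the start site. RefSeq (GRCm38.p6) gave promoter windows of 250 bases before and 50 bases after the start site for 7 of the 10 genes; Hspa8, Hsp90aa1 and Cryab had no entry. Windows were searched on both strands for adjoining pairs of heat shock units, GAANNTTC and TTCNNGAA, each of which is its own reverse complement. The 130 bases before the start site are printed 5′ to 3′ on the strand of the gene, with matches in capitals.
Hspa1a, chr17:34972157-34972286, minus strand: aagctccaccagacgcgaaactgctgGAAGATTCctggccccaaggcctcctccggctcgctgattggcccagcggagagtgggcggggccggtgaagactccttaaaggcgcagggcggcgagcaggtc
Hspa1b, chr17:34959239-34959368, minus strand: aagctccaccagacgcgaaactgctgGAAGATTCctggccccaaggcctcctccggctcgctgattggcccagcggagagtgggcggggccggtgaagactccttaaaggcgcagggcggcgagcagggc
Hspb1, chr5:135887789-135887918, plus strand: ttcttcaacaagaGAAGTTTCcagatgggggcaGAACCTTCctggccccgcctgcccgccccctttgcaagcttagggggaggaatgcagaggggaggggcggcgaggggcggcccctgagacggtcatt
Hsph1, chr5:149636337-149636466, minus strand: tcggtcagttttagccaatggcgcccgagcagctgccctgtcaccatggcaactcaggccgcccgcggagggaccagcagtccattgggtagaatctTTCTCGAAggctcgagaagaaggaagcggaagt

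The stretches of Hspa1a and Hspa1b were identical at 129 of 130 positions, and both held GAAGATTC with its first base at −104 relative to the start site. Hspb1 held matches at −117 and −97, and Hsph1 held a match at −33. Hsph1 also held TTCTGGAAAGTTC, a run of 3 units, at 37 bases after the start site of this entry. Bag3 and Hspb8 each held GAAGTTTC after the start, at 43 and 3 bases. The windows of Dnajb1 held none of the letters searched. A pair was found in 6 of the 7 genes with an entry and in 15.1% of the 32851 promoter windows of the table, where GAANNTTC was in 7.86%, TTCNNGAA in 8.52% and a run of 3 units, starting with either, in 0.603%. The count of 6 is by gene, with repeated windows for Hsph1 and Dnajb1, while the 15.1% is by window. That count also takes Hspa1a and Hspa1b separately, although their stretches are near identical. A match describes letters and is not evidence of binding.

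The libraries held 11317734 to 51802249 estimated counts, and 3 counts corresponded to 0.0556 to 0.255 CPM (counts scaled by library size and TMM factor). Gnat1, the rod transducin gene, was at 8792 CPM in control replicate 2 and at 994 to 3495 CPM in the other libraries. Libraries of a group differed in their makeup. Control replicate 2 had a summed level of 5 retinal ganglion cell markers of 1372 CPM, against 172 to 594 CPM in the other libraries, and its 5 cone markers summed to 511 CPM, where 2-DG replicate 3 had 634 CPM and the rest 37.9 to 86.1 CPM. Control replicate 5 and 2-DG replicate 4 had the highest summed vessel and pericyte markers (2011 and 2520 CPM, against 329 to 1085 CPM) and the lowest bipolar cell markers (121 and 215 CPM, against 305 to 2270 CPM). The 6 retinal pigment epithelium markers summed to 134 CPM in 2-DG replicate 3 and to 0.949 to 18.4 CPM elsewhere. A lower share of a cell type cannot be told apart from less RNA per cell in such bulk samples.

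Across the 10 genes, the stress-inducible HSP70 pair, Hsph1, Hsp90aa1 and Cryab were lower on average in 2-DG explants than in controls, Hspa8 and Hspb8 were higher on average, and Bag3 had a log2 fold change of −0.02. The log2 fold change (2-DG against control, edgeR) was negative for 8 of the 10 genes and their median was −1.04, against a median of −0.01 over all genes tested. Without control replicate 5 the median of the 10 genes was −0.54, and it was −1.26 to −0.86 without any other library. With replicate number as a block, a fit that also leaves out control replicate 5, the median was −0.69. None of the 10 reached an adjusted p-value of 0.05 with edgeR's quasi-likelihood test, and neither did any other gene (0% of genes called). At an unadjusted p under 0.05, 5 of the 10 genes were lower (Hspa1a, Hspa1b, Hsph1, Hsp90aa1 and Cryab) and 0 were higher, against 4.83% of all genes lower and 2.42% higher. Hspa1a and Hspa1b count as 2 of these 5 although their reads are shared. The count of 5 fell to 3 without 2-DG replicate 1 or without 2-DG replicate 3 (Hspa1a, Hspa1b and Cryab in both cases) and was 4 to 6 without any other library, while the share of all genes lower was 3.17% to 9.49% over these fits. In 0 of the 10 genes did all 2-DG libraries lie on one side of all controls, against 1.41% of all genes with all 2-DG libraries lower and 1.51% with all higher.

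**Figure D1:**
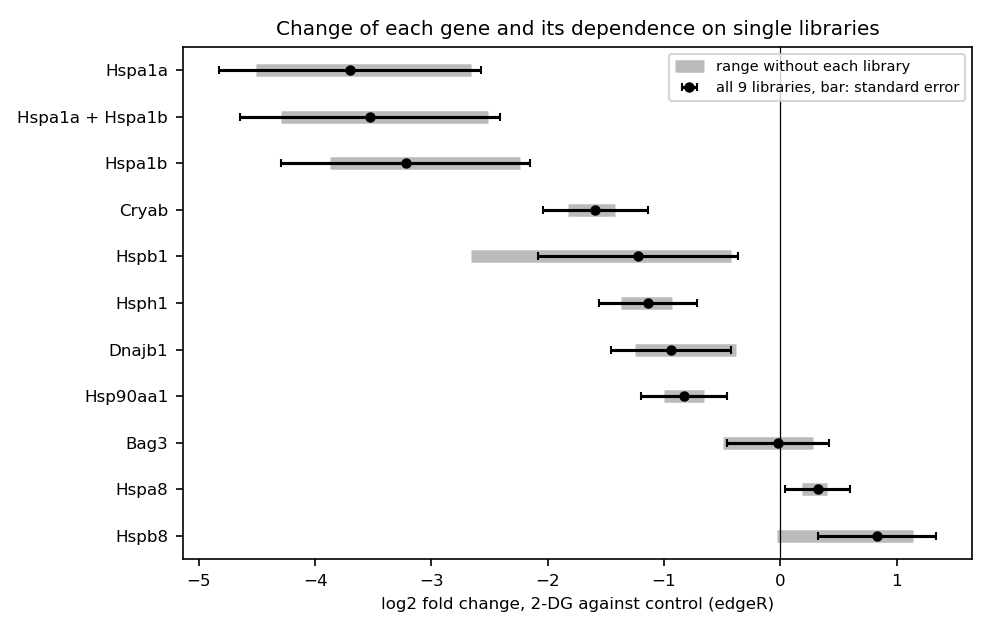
Log2 fold change of each gene and of the sum of Hspa1a and Hspa1b in 2-DG against control explants (horizontal axis; point and bar, edgeR value and its standard error from all 9 libraries; grey band, lowest to highest value when each library was left out in turn). Bands of Hspa1a, Hspa1b, Cryab, Hsph1, Dnajb1, Hsp90aa1 and Hspb1 stayed below 0, whereas those of Bag3 and Hspb8 crossed it.

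Hspa1a (ENSMUSG00000091971, chromosome 17, 34969190 to 34972156) and Hspa1b (ENSMUSG00000090877, chromosome 17, 34956436 to 34959238), on GRCm38 like all gene positions here, are intronless neighbours on the minus strand that encode the inducible HSP70. Hspa1a was at 363, 261, 752, 2541 and 6213 CPM in control replicates 1 to 5 and at 98.4, 148, 19.6 and 359 CPM in 2-DG replicates 1 to 4. Hspa1b was at 155, 145, 330, 1174 and 2658 CPM in controls and at 74.4, 98, 10.3 and 201 CPM with 2-DG. Both genes were highest in control replicates 5 and 4 and lowest in 2-DG replicate 3, and in both 2-DG replicate 4 lay within the range of the controls. The log2 fold change was −3.70 ± 1.13 (SE) for Hspa1a (edgeR, adjusted p = 0.536). For Hspa1b it was −3.22 ± 1.07 (edgeR, adjusted p = 0.58).

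Reads cannot be divided between these genes with certainty. Of the 31-base words of the Hspa1a transcript, 63.8% also occur in that of Hspa1b, 12.1% in that of Hspa1l and 0% in the main transcript of Hspa8. The sum of Hspa1a and Hspa1b was 2918 ± 3589 CPM (SD, n = 5) in control and 252 ± 224 CPM (SD, n = 4) in 2-DG explants. Per library it was 518, 407, 1082, 3715 and 8871 CPM in controls and 173, 246, 29.9 and 559 CPM with 2-DG. All 4 2-DG libraries lay below the control mean, and 2-DG replicate 4 lay above control replicates 1 and 2. The sum had a log2 fold change of −3.53 ± 1.12 in edgeR (adjusted p = 0.546). On log2(CPM + 1) the means were 10.55 ± 1.90 (SD) and 7.37 ± 1.76, a difference of −3.18 with an exact two-sided permutation p of 0.0476 over 126 regroupings, the smallest possible being 0.00794. Without control replicate 5, which had the highest sum, the edgeR log2 fold change was −2.51, and without 2-DG replicate 4 it was −4.29, with unadjusted p-values between 0.00611 and 0.0275 over the 9 leave-one-out fits. DESeq2 gave −3.53 with an adjusted p of 0.018, and limma-voom with quality weights −3.36 with an adjusted p of 0.0229, both past the threshold that edgeR missed.

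The inducible pair varied more among the controls than any other of the 10 genes. The highest control exceeded the lowest 21.8-fold for the sum, 8.95-fold for Hspb1 and 1.77-fold for Hspa8. The ratio of Hspa1b to Hspa1a was 0.426 to 0.555 in controls and 0.528 to 0.756 with 2-DG, and the groups overlapped. Immediate-early genes, which are transcribed within minutes of stimulation of a cell, were read beside the pair. The sum of 10 of them was 1312 to 7578 CPM in controls and 1340 to 3134 CPM with 2-DG, highest in control replicates 5 and 4. All 10 had negative log2 fold changes (median −1.17), and 5 of 10 were lower at an unadjusted p under 0.05, against 4.83% of all genes. Arc, a gene of active synapses, had −2.92 ± 0.68 (edgeR, adjusted p = 0.514), and Egr2, a transcription factor gene, −1.87 ± 0.52 (edgeR, adjusted p = 0.524). Their part in the difference of the heat shock genes was not tested.

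**Figure D2:**
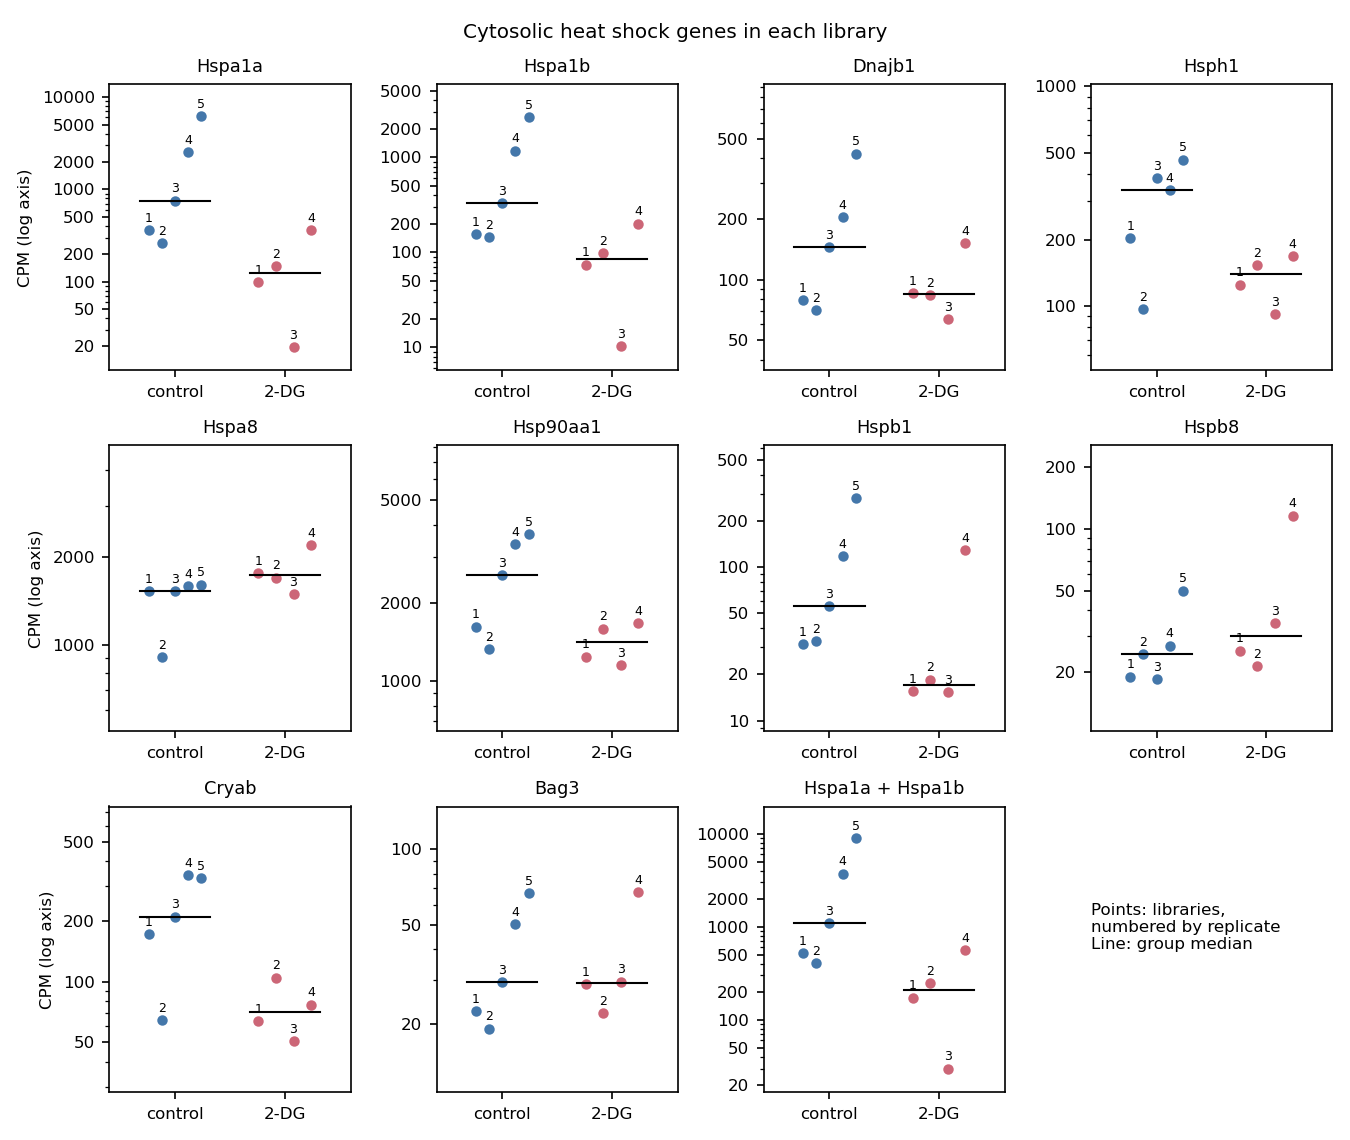
CPM of each gene and of the sum of Hspa1a and Hspa1b (vertical log axes, one panel each with its own scale) in the 5 control and 4 2-DG libraries, with points numbered by replicate and a line at the group median. Control replicates 4 and 5 held the highest values of Hspa1a, Hspa1b, Dnajb1, Hsp90aa1 and Cryab, and 2-DG replicate 4 the highest of Hspb8 and Hspa8.

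Hsph1 (ENSMUSG00000029657, chromosome 5, 149614287 to 149636376) encodes HSP110, a nucleotide exchange factor of HSP70. It was at 203, 96.8, 383, 338 and 464 CPM in controls and at 125, 154, 91.6 and 169 CPM with 2-DG. Control replicate 2 lay among the 2-DG libraries and the other 4 controls lay above all of them. Its log2 fold change was −1.14 ± 0.42 (edgeR, adjusted p = 0.616), between −1.37 and −0.93 in the leave-one-out fits, and its unadjusted p was no longer under 0.05 without 2-DG replicate 1 or without 2-DG replicate 3.

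The annotated transcripts of Hsph1 had unlike values, and the differences between them were not tested. Hsph1-201, which encodes protein and held 29.3% to 46.6% of the counts of the gene in controls, had a log2 fold change of −1.69 ± 0.59 (edgeR, adjusted p = 1). Hsph1-211, another protein-coding transcript, had a log2 fold change of 0.12 ± 0.39 (edgeR, adjusted p = 1), and its share of the counts was 18.7% to 32.6% in controls and 34.1% to 55.8% with 2-DG, without overlap. Hsph1-211 was at 51.5, 43.8, 57.7 and 129 CPM with 2-DG, so that only 2-DG replicate 4 lay above the control mean of 64.7 CPM. Its share was singled out after the values were seen and has no test. Of 9 Hsph1 transcripts with a mean of at least 1 CPM, 6 were lower at an unadjusted p under 0.05, against 2.28% of all transcripts tested. These transcripts divide the reads of the same gene and are not separate observations.

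Dnajb1 (ENSMUSG00000005483, chromosome 8, 83608193 to 83612653) encodes the main inducible HSP40 partner of HSP70. It was at 79, 70.4, 145, 204 and 421 CPM in controls and at 85.6, 83.4, 63.8 and 151 CPM with 2-DG. Control replicates 1 and 2 were among the lowest libraries of all, so that the groups overlapped widely. A log2 fold change of −0.94 ± 0.52 (edgeR, adjusted p = 0.743) became −0.38 without control replicate 5.

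Hspa8 (ENSMUSG00000015656, chromosome 9, 40800984 to 40810087) encodes HSC70, the constitutive cytosolic HSP70. It was at 1530, 909, 1533, 1594 and 1613 CPM in controls and at 1763, 1704, 1494 and 2203 CPM with 2-DG. Control replicate 2 was far below the others, and the remaining 4 controls spanned a narrow range. With a log2 fold change of 0.32 ± 0.28 (edgeR, adjusted p = 0.825), a difference in either direction was not detected.

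Within each library, the inducible pair was set against its constitutive relative, a ratio that does not depend on the scaling of the library and that was chosen after the values were seen. The ratio of Hspa1a and Hspa1b summed to Hspa8 was 0.338, 0.447, 0.706, 2.33 and 5.5 in controls and 0.098, 0.145, 0.02 and 0.254 with 2-DG. Every 2-DG library lay below every control, including control replicate 2. The sum itself overlapped between the groups. Hspa8 was lowest in control replicate 2 (909 CPM) and highest in 2-DG replicate 4 (2203 CPM), so the separation also rests on the denominator. The ratio to Hspa5, the HSP70 of the endoplasmic reticulum (ER), was 0.944 to 12.8 in controls and 0.033 to 0.527 with 2-DG, again without overlap, and Hspa5 itself was higher in every 2-DG library than in every control.

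Hsp90aa1 (ENSMUSG00000021270, chromosome 12, 110690605 to 110702728) encodes the stress-inducible form of cytosolic HSP90. It was at 1619, 1327, 2562, 3371 and 3691 CPM in controls and at 1240, 1590, 1147 and 1667 CPM with 2-DG. Control replicates 3, 4 and 5 lay above all 2-DG libraries, and control replicates 1 and 2 lay among them. This gave a log2 fold change of −0.83 ± 0.37 (edgeR, adjusted p = 0.689). It was −0.66 without control replicate 5, and the unadjusted p was under 0.05 in 3 of the 9 leave-one-out fits. Its main transcript, Hsp90aa1-201, had a log2 fold change of −0.79 ± 0.32 (edgeR, adjusted p = 1).

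The constitutive partner Hsp90ab1 was at 759 to 1665 CPM in controls and 948 to 2736 CPM with 2-DG, with a log2 fold change of 0.35 ± 0.40 (edgeR, adjusted p = 0.859) that turned to −0.17 without 2-DG replicate 4 and to −0.15 with limma-voom. The transcripts of both genes share 0.106% of the 31-base words of Hsp90aa1-201. The ratio of Hsp90aa1 to Hsp90ab1 was 1.71, 1.75, 2.86, 2.55 and 2.22 in controls and 1.31, 1.62, 1.09 and 0.609 with 2-DG. The groups did not overlap, with a narrow gap between 2-DG replicate 2 and control replicate 1. The ratio of Hsp90aa1 to Hsp90b1, the ER form, was 3.57 to 11.7 in controls and 1.45 to 2.69 with 2-DG. Hsp90b1 itself was at 316 to 371 CPM in controls and 620 to 977 CPM with 2-DG (1.19 ± 0.22, edgeR adjusted p = 0.38), so that this ratio also carries the difference in its denominator. Both HSP90 ratios were chosen after the values were seen.

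**Figure D3:**
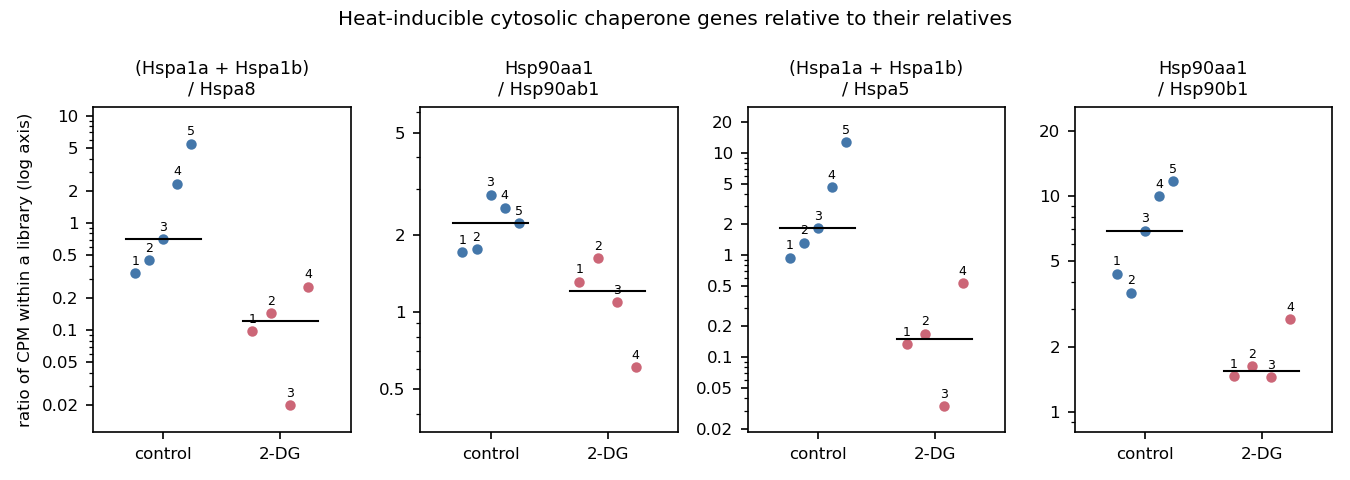
Ratio of CPM of a cytosolic heat-inducible gene to that of a constitutive or ER relative within each library (vertical log axes; points, libraries numbered by replicate; line, group median; 5 control and 4 2-DG libraries). In all 4 panels each 2-DG library lies below each control, with the ER genes Hspa5 and Hsp90b1 themselves higher with 2-DG, and the gap is narrowest for Hsp90aa1 to Hsp90ab1, 1.62 against 1.71. The sum of Hspa1a and Hspa1b, and Hsp90aa1, overlapped between the groups when not divided by a relative.

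Cryab (ENSMUSG00000032060, chromosome 9, 50751325 to 50756636) encodes αB-crystallin, a small heat shock protein of lens, muscle and retinal glia. It was at 173, 64.2, 211, 340 and 329 CPM in controls and at 63.8, 105, 50.6 and 77.1 CPM with 2-DG. Control replicate 2 lay among the 2-DG libraries and the other 4 controls lay above all of them. Cryab had a log2 fold change of −1.59 ± 0.45 (edgeR, adjusted p = 0.524), the smallest adjusted p of the 10 genes, which ranged from −1.83 without control replicate 2 to −1.42 without control replicate 4. DESeq2 gave −1.58 with an adjusted p of 0.0494, and limma-voom −1.69 with an adjusted p of 0.0186. Most counts were assigned to Cryab-205, with 67.1% to 93.1% of the counts of the gene and a log2 fold change of −1.77 ± 0.51 (edgeR, adjusted p = 1).

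Markers of cells that express Cryab were read beside it. The 6 Müller glia markers summed to 1432 to 6230 CPM in controls and 608 to 2774 CPM with 2-DG, and 4 of the 6 had negative log2 fold changes. Sox9, a transcription factor of these glia, had −2.20 ± 0.57 (edgeR, adjusted p = 0.524). Glul, the glutamine synthetase gene, had −1.28 ± 0.58 (edgeR, adjusted p = 0.689). Aqp4 and Apoe, also on that list, had log2 fold changes of 0.19 and 0.23. The 4 reactive glia markers summed to 263 to 1293 CPM in controls and 974 to 1530 CPM with 2-DG, and 3 of the 4 had positive log2 fold changes. The 11 lens markers summed to 8.76 to 26.8 CPM in controls and 5.14 to 17.1 CPM with 2-DG, and the lens membrane gene Lim2 was at 0 in all 9 libraries. The 8 skeletal muscle markers summed to 6.03 to 54.4 CPM in controls and 2.92 to 11.7 CPM with 2-DG, with Myog at 0 throughout. Most of the muscle sum in 4 of the 5 controls was Myod1, a transcription factor gene of muscle precursors, at 24.8, 27.4, 46.1 and 30.8 CPM in control replicates 1, 3, 4 and 5, lower in control replicate 2 and at 0.183 to 4.23 CPM with 2-DG, whereas Ckm, the muscle creatine kinase gene, stayed at or below 1.08 CPM in every library. Crybb3 made up most of the lens sum in 4 controls, at 1.71 to 23.9 CPM in controls and 3.61 to 10.9 CPM with 2-DG. The part of these cells in the Cryab difference was not tested.

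Hspb1 (ENSMUSG00000004951, chromosome 5, 135887919 to 135889563) encodes HSP27, a small heat shock protein that also binds actin filaments. It was at 31.6, 32.8, 55.6, 118 and 283 CPM in controls and at 15.6, 18.5, 15.3 and 129 CPM with 2-DG. In 2-DG replicates 1 to 3 it lay below every control, whereas 2-DG replicate 4 exceeded 4 of the 5 controls. The log2 fold change was −1.22 ± 0.86 (edgeR, adjusted p = 0.79). It was −2.66 without 2-DG replicate 4 and −0.42 without control replicate 5, so the size of the difference rested on these libraries, the ones with the highest vessel and pericyte markers, whose part in it was not tested.

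Hspb8 (ENSMUSG00000041548, chromosome 5, 116408491 to 116422864) and Bag3 (ENSMUSG00000030847, chromosome 7, 128523616 to 128546981) encode a small heat shock protein and the cochaperone that joins it to HSP70 for removal of aggregates by autophagy. Hspb8 was at 19, 24.4, 18.5, 26.9 and 49.9 CPM in controls and at 25.5, 21.4, 34.6 and 116 CPM with 2-DG. Its log2 fold change of 0.83 ± 0.51 (edgeR, adjusted p = 0.767) became −0.03 without 2-DG replicate 4. Bag3 was at 22.5, 19.1, 29.3, 50.1 and 66.6 CPM in controls and at 28.8, 22, 29.5 and 67.6 CPM with 2-DG. For both genes the highest 2-DG library was replicate 4 and the highest control was replicate 5, and the remaining libraries of the groups overlapped. The log2 fold change of Bag3 was −0.02 ± 0.44 (edgeR, adjusted p = 0.993), and it had no fixed sign in the leave-one-out fits (−0.49 to 0.28).

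Which genes overlapped between the groups depended on 2 libraries. Without control replicate 2, the 2-DG libraries were all below the controls for Hspa1a, Hsph1 and Cryab, in a background of 4.48% of all genes. Without 2-DG replicate 4 this was so for Hspa1a, Hspa1b, Hspb1 and the sum of the HSP70 pair, in a background of 4.63%. Leaving out any other library gave 0 of the 10 genes. These libraries were picked out after the values were seen.

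**Figure D4:**
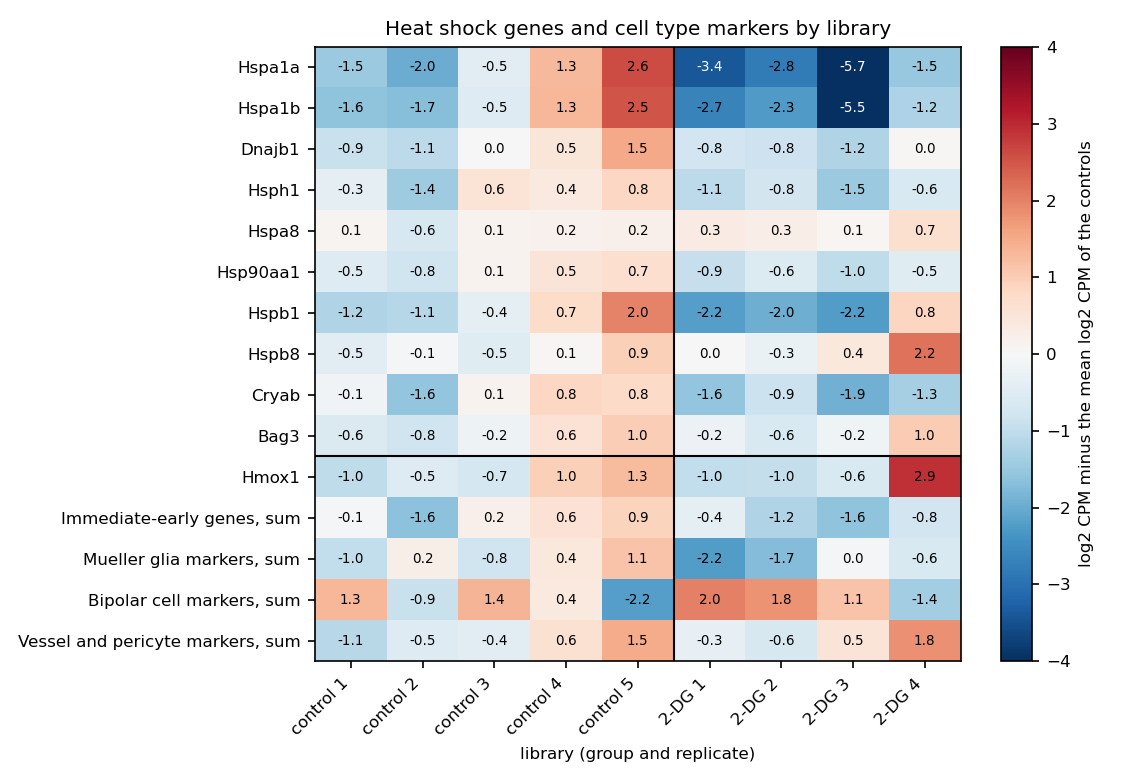
Log2 CPM of each heat shock gene, of Hmox1 and of the summed levels of immediate-early genes and of Müller glia, bipolar cell and vessel and pericyte markers, less the mean log2 CPM of the controls (colour and printed number), in each library (columns, group and replicate). Hspa1a and Hspa1b are at 2.6 and 2.5 in control replicate 5 and at −5.7 and −5.5 in 2-DG replicate 3, and Hspb8 and Hmox1 peak in 2-DG replicate 4 (2.2 and 2.9).

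Levels were compared between genes per kilobase of annotated exon, pooled over all transcripts of a gene. This length was 4301 bases for Hspa8 and 7266 for Hsph1, where Hspa8-201 has 2394 and Hsph1-201 has 3240. The order therefore depends on the length used. In controls the order of mean levels was Hspa1a (683 CPM per kb), Hsp90aa1 (639), Hspa8 (334), Hspa1b (318), Cryab (151), Hspb1 (101), Dnajb1 (57.4), Hsph1 (40.9), Bag3 (14.7) and Hspb8 (14.2). The ranges over the control libraries overlapped between each neighbouring pair of this order, and that of Hspa1a ran from 88.1 to 2094 CPM per kb while that of Hspa8 ran from 211 to 375. With 2-DG the order began with Hspa8 (416 CPM per kb) and Hsp90aa1 (359), and Hspa1a and Hspa1b were at 52.7 and 34.2, next to Cryab at 50.2 and Hspb1 at 43.4. The 2-DG means of Hspb1 and Hspa1a rested largely on replicate 4, at 129 CPM against 15.3 to 18.5 and at 359 CPM against 19.6 to 148. Without control replicate 5 the control means of Hspa1a and Hspa1b were 330 and 161 CPM per kb, beside 324 for Hspa8, 565 for Hsp90aa1 and 133 for Cryab. Those of Hspb1, Dnajb1 and Hsph1 were then 57.7, 38.8 and 35.1 CPM per kb.

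Over the 9 libraries, Pearson's r of log2(CPM + 1) between the 10 genes was 0.95 for Hsph1 with Hsp90aa1, for Hsph1 with Cryab and for Hsp90aa1 with Cryab, 0.93 for Dnajb1 with Hspb1, and −0.14 for Hspb8 with Cryab, the lowest of the 45 pairs. Hspa8 had an r of 0.06 with Hspa1a. Bag3 had an r of 0.84 with Hspb1, 0.83 with Dnajb1, 0.79 with Hspb8 and 0.43 to 0.62 with the other genes. These values describe 9 libraries of 2 groups that share differences in makeup and depth. Among 11233 other genes with a mean of at least 10 CPM, those most like the HSP70 sum were Myo5b (r = 0.974), Cish (0.973), Tmem120a (0.968), Phlda1 (0.956), Tmem70 (0.953) and Fam110a (0.947). Myo5b, which encodes a myosin motor, was at 52.5 to 103 CPM in controls and 27.1 to 45.5 CPM with 2-DG. Cish, which encodes an inhibitor of cytokine signalling, was at 16.5 to 37.3 CPM in controls and 5.76 to 15.5 CPM with 2-DG.

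The close relatives of the inducible HSP70 genes were read next. Hspa1l lies head to head with Hspa1a, its start 547 bases away on the opposite strand, and is a low-level relative of the same cluster. It was at 1.88, 1.88, 4.38, 4.36 and 17.2 CPM in controls and at 0.0892, 0.685, 0.617 and 1.33 CPM with 2-DG, without overlap, and 2-DG replicate 1 was under 3 counts. Its log2 fold change was −3.07 ± 0.85 (edgeR, adjusted p = 0.524), or −2.15 without control replicate 5. DESeq2 gave −3.09 with an adjusted p of 0.0128, and limma-voom −3.61 with an adjusted p of 0.0197. Since 12.1% of the 31-base words of Hspa1a occur in Hspa1l, its counts may include reads of the inducible pair. The 7 other cytosolic HSP70 and HSP110 genes had a median log2 fold change of 0.13. Hspa12b had 1.16 ± 0.44 (edgeR, adjusted p = 0.628), which was 0.80 without 2-DG replicate 3, and Hspa4, which encodes another exchange factor of HSP70, was at 125 to 217 CPM in controls and 177 to 262 CPM with 2-DG.

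The largely constitutive cochaperones and chaperonins had medians near that of all genes or slightly above it. The 10 other cytosolic HSP40 genes had a median log2 fold change of −0.09, with 0 of 10 at an unadjusted p under 0.05. Of these, Dnaja1, an abundant partner of Hspa8, had −0.07 ± 0.26 (edgeR, adjusted p = 0.96). Dnaja2, another such partner, had 0.33 ± 0.22 (edgeR, adjusted p = 0.783), and Dnajb2, an HSP40 of neurons, −0.24 ± 0.24 (edgeR, adjusted p = 0.844), the latter −0.46 without 2-DG replicate 4 and −0.12 without 2-DG replicate 3. Of 13 genes of the HSP90 list, 12 had positive values (median 0.29), and Fkbp5, an HSP90 cochaperone induced by glucocorticoids, was the 1 gene at an unadjusted p under 0.05 (0.74 ± 0.29, edgeR adjusted p = 0.644). Its unadjusted p was over 0.05 in 4 of the 9 leave-one-out fits, and its value was 0.45 without 2-DG replicate 3. Chordc1, another HSP90 cochaperone, was higher in every 2-DG library than in every control (59.2 to 73.6 against 27 to 57.9 CPM). The 8 BAG genes and other HSP70 regulators all had positive values (0.09 to 0.49). St13, which encodes the HSP70-interacting protein Hip, was at 81 to 167 CPM in controls and 192 to 242 CPM with 2-DG, and Bag1, an exchange factor gene, had 0.34 ± 0.23 (edgeR, adjusted p = 0.789), which was 0.07 without 2-DG replicate 4. The 14 genes of the TRiC chaperonin and prefoldin had a median of 0.25 and none at an unadjusted p under 0.05, with 0.28 for both Pfdn1 and Cct8.

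Among 5 of 6 other small heat shock genes that were tested, 4 had negative values (median −0.40). Hspb6, which encodes HSP20, was at 74.5 to 175 CPM in controls and 49.7 to 73.2 CPM with 2-DG, without overlap, and had a log2 fold change of −0.77 ± 0.28 (edgeR, adjusted p = 0.611), or −0.55 without control replicate 5. Hspb11 had −0.40 ± 0.26 (adjusted p = 0.779), and Cryaa, the αA-crystallin gene, −0.55 ± 1.14 (adjusted p = 0.924) at 0.145 to 10.5 CPM, a value that ran from −1.47 without 2-DG replicate 3 to −0.04 without control replicate 1. Hspb2, which lies next to Cryab on the opposite strand, stayed at or below 0.667 CPM in all libraries. The heat shock factors, which drive the response and are regulated largely as proteins, were measured at the RNA level only. Hsf1 was at 71 ± 21.8 CPM (SD, n = 5) in controls and 70.2 ± 12.9 CPM (SD, n = 4) with 2-DG, and Hsf2 had a log2 fold change of 0.22 ± 0.28 (edgeR, adjusted p = 0.871), or 0.06 without control replicate 5. Hsbp1, an HSF1-binding protein, had 0.27 ± 0.20 (adjusted p = 0.8), and Hsf4, the heat shock factor of the lens, −0.57 ± 0.52 (adjusted p = 0.831), or −0.22 without control replicate 1.

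Chaperones of other compartments and other heat-inducible genes were set beside the cytosolic ones. The 10 ER chaperone genes all had positive log2 fold changes (median 1.09), 9 of 10 at an unadjusted p under 0.05 and 9 without overlap, against 2.42% and 1.51% of all genes. Hspa5, which encodes BiP, was at 308 to 802 CPM in controls and 908 to 1453 CPM with 2-DG (1.00 ± 0.31, edgeR adjusted p = 0.538). Pdia4, a disulfide isomerase gene, had 1.70 ± 0.21 (edgeR adjusted p = 0.181). Hyou1, the ER counterpart of Hsph1, had 1.18 ± 0.19 (edgeR adjusted p = 0.3). The 9 mitochondrial chaperones and proteases had a median of 0.12, with Clpb at 0.59 ± 0.25 (edgeR, adjusted p = 0.676), Dnaja3 at 0.20 (0.05 without 2-DG replicate 4) and Hspd1 at 0.17. Of 6 other heat-inducible genes, 4 had positive values (median 0.20) and none had an unadjusted p under 0.05. Heme oxygenase Hmox1, which answers to oxidative stress as well as heat, was at 311 to 1532 CPM in controls and at 319, 324, 416 and 4758 CPM with 2-DG, the highest value being that of replicate 4. Its log2 fold change of 0.90 ± 0.88 became −1.14 without that library.

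**Figure D5:**
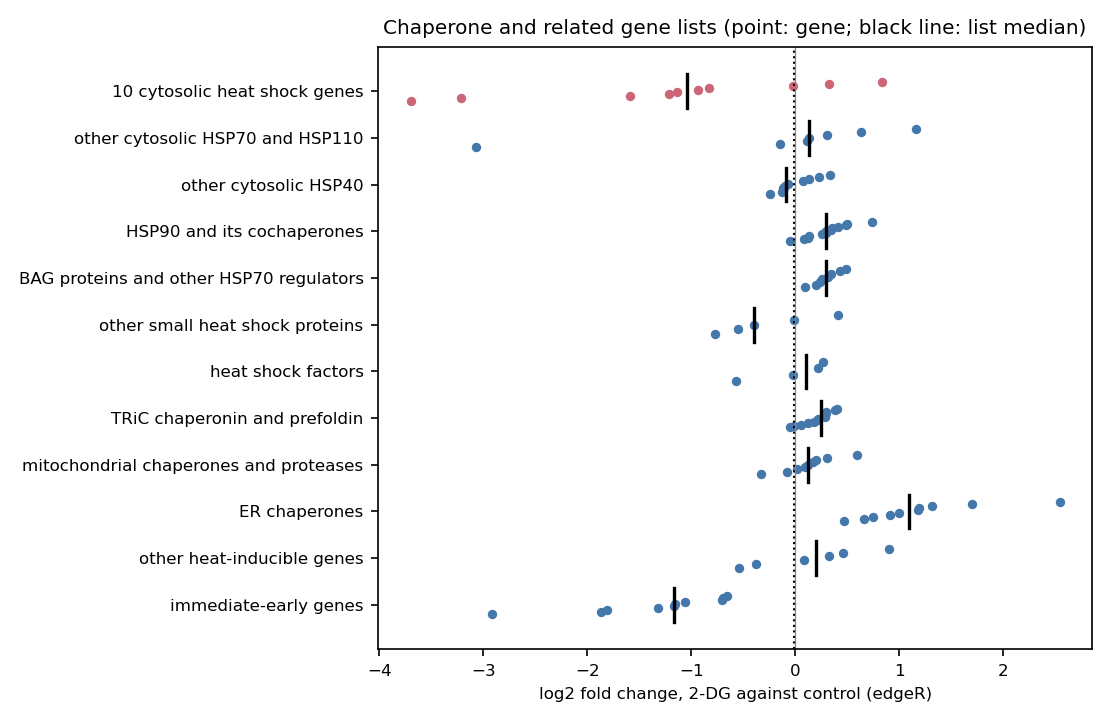
Log2 fold change in 2-DG against control explants (horizontal axis, edgeR) of the 10 cytosolic heat shock genes (red) and of the genes of 11 other lists (blue), with a black line at each list median and a dotted line at the median of all genes tested (−0.01). The medians of the cytosolic heat shock genes (−1.04, or −0.54 without control replicate 5) and the immediate-early genes (−1.17) lie below 0, that of the ER chaperones (1.09) above it, and the others between −0.40 and 0.29.

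At the level of transcripts, 39 of the 44 annotated transcripts of the 10 genes were tested among 62900. At an unadjusted p under 0.05, 15 of the 39 were lower and 0 higher, against 2.28% of all transcripts lower, and none had an adjusted p under 0.05. The count of 15 was 9 without control replicate 5. Transcripts of a gene divide reads already counted for that gene, so they are not separate observations. Of the 14 lower transcripts with a mean of at least 1 CPM, 6 were of Hsph1. Of the 35 transcripts with a mean of at least 1 CPM, 25 had negative log2 fold changes. Hspb1-202, a minor protein-coding transcript of Hspb1, held 3.79% to 7.99% of the counts of the gene in controls and 0% to 2.59% with 2-DG. Hspa8-201 and Hspa8-202 had log2 fold changes of 0.37 ± 0.27 and 0.26 ± 1.32, the latter with a level close to 0 in 2-DG replicate 3 alone. Shares of transcripts rest on how the authors' software divided reads among overlapping models, an error that the deposited estimates do not carry.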

How the data were processed

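RNA-seq was analysed in 5 control and 4 2-DG libraries of retinal explants, each from 4 ng of total RNA (SMARTer stranded chemistry, 13 PCR cycles, paired reads of 101 bases), all labelled batch 1. The authors deposited estimated counts per gene (55487) and per transcript (142699), not scaled between libraries. The submitters' processing notes name kallisto and GRCm38, with no version, and how transcripts were summed to genes is not given in the sources used here. Their CPM table holds 12568 genes and is another deposited unit, CPM on the authors' own scaled library size, 0.972 to 1.11 times the CPM here for the 10 genes; it was used only as an alternative. Their table of fold changes and p-values was not used. Of the count columns, 0 were without a sample.

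Estimated counts were rounded (totals moved by at most 0.00377%), filtered with filterByExpr, scaled by TMM and tested with edgeR 4.0.16 (glmQLFit with legacy=TRUE, glmQLFTest) in R 4.3.3 on all 9 libraries, with Benjamini-Hochberg adjustment over 21049 genes or 62900 transcripts and a threshold of 0.05. The standard error is the absolute log2 fold change divided by the square root of F. The sum of Hspa1a and Hspa1b was fitted in place of both rows and compared by an exact permutation test. The script was tested on simulated counts. Totals were 11317734 to 51802249, so that 3 counts equal 0.0556 to 0.255 CPM; this floor covers counting error only, and reads carry no molecular identifiers in these files. Symbols matched 99.5% of gene IDs; positions and exon lengths are from GENCODE M21 (GRCm38), promoters from RefSeq (GRCm38.p6). Named were the 10 genes, their sum, 8 related genes whatever their values, the 2 genes of smallest p of each of 11 pathway lists, the 6 genes most like the sum and transcripts with a mean of at least 1 CPM. Some genes that this rule names are not reported here. The genes and lists were chosen with earlier results of these data known, and lists are described by counts and medians. The 19 alternatives for each gene were other scalings, no filter, DESeq2 1.42.0, limma 3.58.1 with voom quality weights, robust fitting, the authors' CPM on log2(CPM + 1) and log2(CPM + 0.1), a replicate block and leaving out each library.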

Additional observations from a re-analysis of the deposited data

Results flagged for a closer look

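In 82 groups of 4 or 5 libraries, 1 for each named gene and condition, the highest or lowest library was set against the others by its gap over the range of its group (Dixon's ratio). In independent groups of normal values about 1 in 20 pass the critical value, and here 15 of 82 did. The ratios were taken on CPM without logs, and all groups share the same 9 libraries. The number that chance would give here is therefore not known.

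Of these, 8 were 2-DG replicate 4 as the highest of its group. The ratios were 0.973 for Hspb1 (129 CPM against 15.3 to 18.5), 0.861 for Hspb8 (116 against 21.4 to 34.6), 0.835 for Bag3 (67.6 against 22 to 29.5), 0.942 for Hsp90ab1 (2736 against 948 to 1052), 0.844 for St13, 0.894 for Hsbp1, 0.978 for Hmox1 (4758 against 319 to 416) and 0.892 for Arc. Control replicate 2 was the lowest of its group for Hspa8 (0.882, 909 CPM against 1530 to 1613), Dnaja1 (0.834) and St13 (0.909), and the highest for Hsf1 (0.839, 109 CPM against 57.9 to 66.2). Control replicate 5 was the highest for Hspb8 (0.733, 49.9 CPM against 18.5 to 26.9) and Hspa1l (0.836, 17.2 CPM against 1.88 to 4.38). Clpb was lowest in 2-DG replicate 3 (0.951, 52.4 CPM against 72.2 to 73.3). The sum of Hspa1a and Hspa1b was not among them. 2-DG replicate 4 had a TMM factor of 0.82, against 1.021 to 1.043 for the other 2-DG libraries, and a lower factor raises the CPM of a library. Its gaps for St13 (242 CPM against 192 to 200) and Hsbp1 (125 CPM against 100 to 103) thus depend on the scaling. No reason for these gaps was tested.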

How the results depend on the processing

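All 10 genes were above 3 counts in every library, and what limited their calls was not tested. Their median log2 fold change was −1.26 to −0.54 when each library was left out. The number of all genes past an adjusted p of 0.05 was 0 with edgeR, 284 with DESeq2 and 1222 with limma-voom and quality weights, and 0 to 16 when each library was left out. Of the 10 genes, DESeq2 called 3 (Hspa1a, Hspa1b and Cryab, where 1.35% of all genes were called) and limma-voom 6 (with Hsph1, Hsp90aa1 and Hspb1, where 5.81% were called). The sum of Hspa1a and Hspa1b was −3.53 with DESeq2 (adjusted p = 0.018) and −3.36 with limma-voom (adjusted p = 0.0229), and −4.29 to −2.51 when each library was left out. Leaving out each library gave 3 to 6 of the 10 genes lower and 0 to 1 higher at an unadjusted p under 0.05 (3.17% to 9.49% of all genes lower, the highest share without 2-DG replicate 4), the higher gene being Hspb8 without control replicate 5, and 9 to 20 of their transcripts lower.

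The sign turned in 10 values outside the leave-one-out fits. These were Bag3 (0.24) and Dnaja1 (0.05) with the replicate block, Hspb2 with no filter (0.01), limma-voom (0.07) and the block (0.35), Hsf1 with no filter (0.02) and limma-voom (0.28), and Hsp90ab1 (−0.15), Hspd1 (−0.10) and Hmox1 (−0.91) with limma-voom. When each library was left out, the values spanned 0 for Bag3 (−0.49 to 0.28), Hspb8 (−0.03 to 1.14), Hsp90ab1 (−0.17 to 0.53), Hspb2 (−0.25 to 0.18), Hsf1 (−0.13 to 0.19), Hspd1 (−0.06 to 0.27) and Hmox1 (−1.14 to 1.29). The block also leaves out control replicate 5. Without that library and with no block, Bag3 was 0.28, Hspb2 0.18 and Dnaja1 −0.01. The cause of these turns was not tested.

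Replicate numbers are shared between the groups, but the labels do not tie them to a mouse or day. The correlation of deviations from the group means of libraries with the same number was 0.451, −0.155, 0.102 and 0.205, and not every library correlated best with its own number, so the samples were not treated as pairs. With replicate number as a block (8 libraries, without control replicate 5), 0 genes passed the threshold and the sum was −2.47 (edgeR, adjusted p = 0.655). The sum was −2.51 without that library and with no block. In the block fit 4 of the 10 were lower at an unadjusted p under 0.05 (Hspa1a, Hspa1b, Hspb1 and Cryab, where 3.06% of all genes were lower). Of the other values, 362 kept their direction and side of the threshold and 20 passed it with the same direction.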
